A study of Homo sapiens with 4 samples.

Results

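The 39 genes described here are interferon-stimulated genes (ISGs), a named list of antiviral effectors, signalling proteins and ISG15 system enzymes. They were chosen by gene symbol, and all 39 were found among the 59652 genes of the count table. RNA was measured in Huh7 and PLC cells, both human hepatocellular carcinoma (HCC) lines of the genotype given as WT. The cells grew in glucose-free DMEM with fetal bovine serum to which either 5 mM (low) or 25 mM (high) glucose was added for 48 h. Each of the 4 combinations of line and glucose concentration is 1 library, so no group has replicates, and neither the other line nor the other glucose concentration is a replicate culture. The labels give no interferon or virus treatment, so all values are levels without a labelled stimulus.

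Interferons are secreted proteins that bind receptors on the cell surface and activate the kinases JAK1 and TYK2. These phosphorylate STAT2, which joins IRF9 in the complex ISGF3, and ISGF3 binds a promoter element called ISRE (interferon-stimulated response element). The genes behind such elements encode proteins that sense, degrade or trap viruses, and many cells also hold a low level of their RNA without added interferon.

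The libraries held between 16049686 and 30279716 counted reads. The 39 ISGs together held 7476 (5 mM) and 12360 (25 mM) reads in the Huh7 libraries and 19965 and 13926 in those of PLC cells. In all pairs of values below, 5 mM comes first. These were 0.0350%, 0.0411%, 0.0659% and 0.0868% of all counted reads. Levels between genes are given as FPKM, which divides reads by gene length and by the library total. The labelled cell type was checked with markers. Of 10 hepatocyte markers, 10 were over 0.5 FPKM in both Huh7 libraries and 9 in both PLC libraries, with the secreted transport protein gene TTR at 4 and 0 reads in PLC cells. Their summed level ranged from 5971 to 6263 FPKM in Huh7 and from 761 to 1658 FPKM in PLC cells. The leukocyte marker CD3E had 0 reads in all 4 libraries and PTPRC had at most 5, while CD14 and LYZ were over 0.5 FPKM in all 4. Of 4 endothelial markers, PECAM1 was over 0.5 FPKM in Huh7 cells only, and KDR had 0 reads in all 4 libraries. Of 6 fibroblast markers, LUM was over 0.5 FPKM in Huh7 and COL3A1 in PLC cells. The markers thus moved with the line, and their part in the ISG differences between the lines was not tested. In such bulk RNA, fewer cells with a transcript and less RNA per cell cannot be told apart.

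The ISGs were transcribed at low levels in Huh7 cells, and a handful of them were abundant in PLC cells. The summed level of the 39 genes was 64.4 and 75.3 FPKM in Huh7 cells, and 391 and 535 FPKM in PLC cells. The median member was at 0.424, 0.437, 0.406 and 0.889 FPKM in the same order. The median member was thus similar in the lines at 5 mM and higher in PLC cells at 25 mM. In Huh7 cells the most abundant ISG was MX2, a dynamin-like GTPase that restricts viruses at the nucleus, with 14.2% and 13.2% of the summed FPKM. In PLC cells it was IFITM3, a membrane protein that blocks fusion of enveloped viruses, with 52.6% and 56.9%. The highest 3 members held 39.2% and 36.1% of the summed FPKM in Huh7 and 73.9% and 80.0% in PLC cells.

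**Figure D1:**
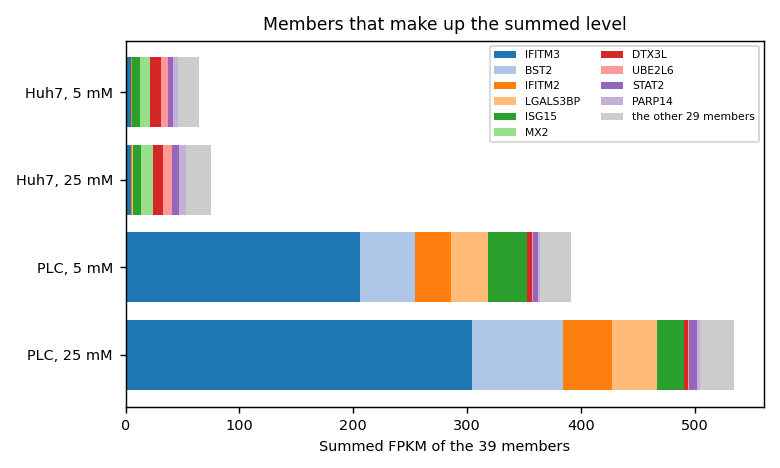
Summed FPKM of the 39 ISGs in each library (horizontal axis), with 1 bar per library and colours for 10 chosen members and grey for the other 29. IFITM3 alone reaches 206 and 304 FPKM in PLC cells, more than the whole bar of either Huh7 library (64.4 and 75.3 FPKM).

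Detection, taken as more than 3 reads, separated the lines in both libraries of each line for BST2, OAS1, MX2 and TRIM22 only. How many of all genes separate the lines in this way was not counted, so the split is not shown to be particular to the ISGs. Of the 39 ISGs, 25 had more than 3 reads in all 4 libraries. BST2 and OAS1 had 0 reads in both Huh7 libraries and more than 3 in both PLC libraries. MX2 and TRIM22 had more than 3 reads in both Huh7 libraries and 3 or fewer in both PLC libraries. OAS2, IFI44, XAF1 and SAMD9L stayed at 3 or fewer reads in every library, and IFI44 and SAMD9L had 0 reads throughout. The other 6 crossed this limit in some libraries of a line only (OASL, IFITM1, IFI44L, EPSTI1, IFI27 and MX1).

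The difference between the lines was tested on counts with edgeR's quasi-likelihood test over 23217 genes, with glucose as a block and 1 residual degree of freedom. Across all genes, 42.9% passed an adjusted p of 0.05 in this comparison, 21.8% with higher levels in Huh7 and 21.1% with higher levels in PLC cells. Of the 39 ISGs, 31 were tested and 20 passed, 9 higher in Huh7 and 11 higher in PLC cells. A passing p here sets the line difference against the spread left after both terms, not against replicate cultures. Fits that leave out a library also drop the glucose block, since 3 libraries cannot carry both terms, and without that block alone 19 ISGs passed. Without the Huh7 library at 25 mM, fewer passed both among the ISGs and over all genes, and Huh7 cells then have 1 library. The remaining 8 were too low to be tested (OAS2, OASL, IFI44, IFI44L, XAF1, SAMD9L, EPSTI1 and IFITM1).

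BST2 and LGALS3BP had wide gaps in favour of PLC cells. BST2 encodes tetherin, which holds budding virus particles at the cell surface, and lies at chr19:17402939-17405630 (hg38, minus strand). The gene had 0 and 0 reads in the Huh7 libraries, and 1640 and 1414 in those of PLC cells. Against the limit of 3 reads that a count of 0 allows over both Huh7 libraries, its level was at least 1131-fold higher in PLC cells (edgeR adjusted p = 8.44e-09). LGALS3BP, a secreted glycoprotein that binds galectins, had 18 and 25 reads in Huh7 and 3401 and 2168 in PLC cells. Its pooled level was 144-fold higher in PLC cells, and the fitted difference of Huh7 to PLC was -7.21 ± 0.32 (log2, SE; edgeR adjusted p = 3.80e-09). The groups did not overlap for either gene. The share of all genes without overlap was not counted, and 42.9% of all genes passed between the lines.

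The IFITM genes sit side by side on chromosome 11 and encode closely similar membrane proteins. IFITM3 (chr11:319676-327537) had 110 and 179 reads in Huh7 and 7164 and 5624 in PLC cells, a pooled level 49.2-fold higher in PLC cells (edgeR adjusted p = 4.89e-09). IFITM2 (chr11:307631-315272) had 25 and 34 reads against 1448 and 1073, which was 47.5-fold (edgeR adjusted p = 3.39e-08). IFITM1 had 0 and 0 reads in Huh7 and 5 and 2 in PLC cells. IFITM1 shares 37.5% of its exon bases with IFITM2 on the same strand, and near-identical stretches within the family can exchange reads, so the division between the 3 genes is uncertain. In the counts as assigned, both IFITM2 and IFITM3 were high in the same line, and the part of exchanged reads in this was not tested.

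The OAS enzymes make short oligoadenylates that switch on RNase L when viral RNA is present. OAS1 had 0 and 0 reads in Huh7 and 178 and 107 in PLC cells, which was at least 105.5-fold higher in PLC cells (edgeR adjusted p = 2.76e-06, and 0.0501 with DESeq2). OAS3 had 11 and 20 reads against 154 and 191, a pooled level 12.4-fold higher in PLC cells (edgeR adjusted p = 2.13e-05). Their neighbour OAS2 had 0, 0, 0 and 2 reads, and OASL had 2, 2, 12 and 2. The 3 neighbours OAS1, OAS3 and OAS2 lie on chromosome 12 with 5221 and 5143 bases between them, and in PLC cells OAS1 was at 1.18 and 1.34 FPKM and OAS3 at 0.623 and 1.46 FPKM while OAS2 was at 0 and 0.0199 FPKM. MX2 and MX1 on chromosome 21, with 10910 bases between them, likewise differed in level, as MX2 was at 9.13 and 9.91 FPKM in Huh7 cells and MX1 at 0.114 and 0.0733 FPKM.

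ISG15, IFI6, IFI35, HERC6 and IFIT5 were the other genes with higher levels in PLC cells. ISG15, a ubiquitin-like protein that is attached to other proteins, had 134 and 200 reads in Huh7 and 895 and 331 in PLC cells, a pooled level 4.08-fold higher (edgeR adjusted p = 0.000269). IFI35, a partner of the protein NMI, had 32 and 44 reads against 504 and 217, which was 10.5-fold (edgeR adjusted p = 9.32e-06). IFI6, a small membrane protein with antiviral activity, had 10 and 10 reads against 56 and 68, which was 6.89-fold (edgeR adjusted p = 0.00227). In these 3 genes the lowest PLC library was above the highest Huh7 library in reads, which was not counted over all genes.

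The gap was narrower for HERC6 and IFIT5. HERC6, a HECT-type ubiquitin ligase family member, had 22 and 64 reads in Huh7 and 71 and 105 in PLC cells, 2.27-fold higher in PLC cells (edgeR adjusted p = 0.0181). IFIT5, of a family that binds viral RNA, had 190 and 295 reads against 564 and 251, 1.87-fold higher in PLC cells (edgeR adjusted p = 0.0347). Per length and depth, IFIT5 was at 2.21 and 2.43 FPKM in Huh7 and at 4.62 and 3.88 FPKM in PLC cells. HERC6 passed in 5 of 10 alternative fits and failed without either Huh7 library or the PLC library at 25 mM, with an adjusted p of up to 0.337. IFIT5 passed in 6 of 10 and failed without either Huh7 library or the PLC library at 5 mM, with an adjusted p of up to 0.297.

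Among the genes higher in Huh7 cells, MX2 (chr21:41361999-41409393) stood first. MX2 had 2535 and 3875 reads in Huh7 and 0 and 2 in PLC cells, a pooled ratio of 2885 with a 95% interval for counting error of 798 to 23831 (edgeR adjusted p = 4.82e-09). TRIM22, an antiviral ubiquitin ligase, had 75 and 108 reads against 2 and 0, a pooled ratio of 82.4 with an interval of 22.5 to 685 (edgeR adjusted p = 3.87e-05). TRIM22 shares 10.8% of its exon bases with the olfactory receptor gene OR56B1 on the same strand, which had 24 and 18 reads in Huh7 and 0 in PLC cells. Both ISGs were thus at or near the limit of detection in PLC cells.

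Of 3 enzymes of the ISG15 system, UBE2L6 and USP18 were higher in Huh7 cells, the line with less ISG15 RNA, and HERC5 did not pass. UBE2L6, the conjugating enzyme for ISG15, had 276 and 493 reads in Huh7 and 20 and 4 in PLC cells, a pooled level 28.8-fold higher in Huh7 cells (edgeR adjusted p = 3.39e-06). USP18, which removes ISG15 and also dampens the type I interferon receptor, had 152 and 313 reads against 22 and 25, 8.91-fold higher in Huh7 cells (edgeR adjusted p = 6.43e-05). HERC5, the ligase for ISG15, had 118 and 208 reads in Huh7 and 124 and 106 in PLC cells (0.24 ± 0.35, log2 difference of Huh7 to PLC, SE; edgeR adjusted p = 0.618).

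PARP9, DTX3L and PARP14 are ADP-ribosylation and ubiquitin ligase genes on chromosome 3, and the PARP9 and DTX3L proteins work as a pair. PARP9 had 330 and 651 reads in Huh7 and 232 and 173 in PLC cells, 2.18-fold higher in Huh7 cells (edgeR adjusted p = 0.0154). DTX3L had 1096 and 1613 reads against 838 and 330, 2.09-fold (edgeR adjusted p = 0.00349). PARP14 had 855 and 1918 reads against 704 and 450, 2.16-fold (edgeR adjusted p = 0.00744). The 3 pooled folds lay within 2.09 to 2.18, and none of the 3 genes passed without the Huh7 library at 25 mM (edgeR adjusted p = 0.322, 0.101 and 0.343). Without the Huh7 library at 5 mM, PARP9 and DTX3L did not pass either (edgeR adjusted p = 0.0825 and 0.0822).

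Of the IFIT family on chromosome 10, IFIT3 was higher in Huh7 cells with 23 and 83 reads against 6 and 4, a pooled 9.54-fold (edgeR adjusted p = 0.00469, and 0.209 without the Huh7 library at 25 mM). SAMD9, which restricts poxviruses, had 24 and 66 reads against 12 and 6, 4.50-fold higher in Huh7 cells (edgeR adjusted p = 0.0297, and 0.348 without the same library). With DESeq2 the adjusted p was 0.0814 for IFIT3 and 0.272 for SAMD9. IFIT1 and IFIT2 did not pass, with adjusted p-values of 0.610 and 0.489 in edgeR. In this family IFIT5, IFIT1 and IFIT2 thus differed from IFIT3 in the outcome of the test, and the difference between family members was not tested.

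The transcription factor genes STAT2, IRF1, IRF7 and IRF9 did not pass between the lines in this fit. STAT2 had 678 and 1034 reads in Huh7 and 805 and 743 in PLC cells (log2 difference of Huh7 to PLC -0.09 ± 0.26, SE; edgeR adjusted p = 0.805). IRF1 had 199 and 295 reads against 256 and 111 (0.31 ± 0.33; edgeR adjusted p = 0.480), and IRF7 had 122 and 179 against 135 and 52 (0.60 ± 0.38; edgeR adjusted p = 0.222). The DNA-binding subunit IRF9 had 19 and 9 reads against 43 and 39 (-1.77 ± 0.69; edgeR adjusted p = 0.0533). IRF9 passed as higher in PLC cells in 4 alternatives, with an adjusted p of 0.0418 in limma, 0.0233 without the filter on low counts, 0.0425 without the Huh7 library at 5 mM and 0.0390 without the PLC library at 5 mM (edgeR). IRF9 shares 42.2% of its exon bases with AL136295.5 on the same strand, and IRF1 shares 22.1% with the opposite-strand IRF1-AS1. The genes tested without passing were 11 in all, the others being the exonuclease gene ISG20, IFIT1, IFIT2, MX1, IFI27, the RNA sensor IFIH1 and HERC5. MX1 passed as higher in Huh7 cells with limma (adjusted p = 0.0267). A p over the threshold does not show that their levels are alike in the lines.

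Because these genes are grouped by their response to interferon, the promoters of the members were searched for the ISRE core, written GAAANNGAAA, and its reverse complement TTTCNNTTTC, in windows of 250 bases before to 50 bases after the gene start (RefSeq, GRCh38.p14). A promoter was held for 31 of the 39 ISGs, the others being IFIT2, MX2, OAS2, OASL, IRF7, USP18, TRIM22 and IFITM2. The core was present in 22 of these 31 (71.0%) and in 1195 of all 27305 genes with a promoter (4.38%). The element GAS, written TTCNNNGAA, was present in 10 of 31 (32.3%) and in 2560 of 27305 genes (9.38%). In the 22 ISGs the core occurred 42 times, counted once for each gene and place, with 40 centres before the gene start, the farthest at -191 and 16 bases. The windows below show the core in capitals with 20 bases on each side, for genes that were high in PLC cells (BST2, IFITM3, LGALS3BP, ISG15), high in Huh7 cells (IFIT3, PARP14, PARP9, DTX3L), past the glucose thresholds in 1 line (OAS3, IFI6, IFIH1) or without reads (IFI44). These classes overlap, as BST2, IFIT3 and PARP14 were also past the glucose thresholds in 1 line, and OAS3 and IFI6 were also higher in PLC cells.
BST2: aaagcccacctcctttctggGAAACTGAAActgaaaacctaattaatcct
IFITM3: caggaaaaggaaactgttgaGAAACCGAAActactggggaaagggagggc
LGALS3BP: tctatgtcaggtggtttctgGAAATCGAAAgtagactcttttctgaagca
ISG15: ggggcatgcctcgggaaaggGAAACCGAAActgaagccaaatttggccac
IFIT3: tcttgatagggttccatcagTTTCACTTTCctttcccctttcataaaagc
PARP14: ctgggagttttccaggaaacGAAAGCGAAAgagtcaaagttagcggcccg
PARP9: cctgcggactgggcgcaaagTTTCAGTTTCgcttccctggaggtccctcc
DTX3L: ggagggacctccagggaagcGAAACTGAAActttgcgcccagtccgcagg
OAS3: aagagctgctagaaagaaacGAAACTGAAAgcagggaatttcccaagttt
IFI6: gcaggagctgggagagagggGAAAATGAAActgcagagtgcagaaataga
IFIH1: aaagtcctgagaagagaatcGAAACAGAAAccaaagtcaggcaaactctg
IFI44: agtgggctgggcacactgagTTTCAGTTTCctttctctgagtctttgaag

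Each window is written 5′ to 3′ on the strand of its gene. Those of the PLC-high genes lie at chr19:17405731-17405780 for BST2 (minus strand, centre at -125), chr11:320866-320915 for IFITM3 (minus, -30), chr17:78979952-78980001 for LGALS3BP (minus, -53) and chr1:1013370-1013419 for ISG15 (plus, -102). Those of the Huh7-high genes lie at chr10:89332458-89332507 for IFIT3 (plus, -46) and chr3:122680790-122680839 for PARP14 (plus, -24). PARP9 and DTX3L are read in opposite directions from chr3:122564312-122564361, so their windows are the same place read on the minus and plus strands, centred at -36 and -1. The others lie at chr12:112938311-112938360 for OAS3 (plus, -138), chr1:27672278-27672327 for IFI6 (minus, -110), chr2:162318676-162318725 for IFIH1 (minus, -16) and chr1:78649751-78649800 for IFI44 (plus, -13).

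The core was found in genes at both ends of the range of levels. BST2 at 49.2 and 80.0 FPKM and IFI44 at 0 FPKM in PLC cells both held the core. Of the 22 ISGs with the core, 11 were over 0.5 FPKM in at least 1 Huh7 library and 13 in at least 1 PLC library. Of the 9 without it (OAS1, IFI35, STAT2, IRF1, IRF9, XAF1, HERC6, SAMD9L and UBE2L6) 4 and 6 were. The mean levels ranged from 0 to 9.09 FPKM with the core and from 0 to 7.10 FPKM without it in Huh7 cells, and from 0 to 255 and from 0 to 7.70 FPKM in PLC cells. A match is a run of letters in a window and not a measured binding site.

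Glucose was then compared within each line. A gene was past the thresholds when FPKM was over 0.5 in at least 1 of the 2 libraries and the ratio of 25 mM to 5 mM FPKM, with 0.1 added to both, was over 1.5 or under 0.67. With 1 library for each condition there is no test, and the 95% intervals given are exact binomial (Clopper-Pearson) intervals of the ratio without the added 0.1, which cover counting error only. Low counts were even more often than odd (62.8% to 64.0% of counts from 1 to 10), so reads may not have been counted independently and the intervals may be too narrow. Every interval was therefore also computed from counts divided by 2.

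In Huh7 cells, 20 of the 39 ISGs were over 0.5 FPKM and 19 were below it. Among all genes over 0.5 FPKM in this line, 14.1% were past the upper and 13.7% past the lower threshold. Of the 20 ISGs, 2 were past the upper threshold and 1 past the lower. IFIT3 was at 0.424 FPKM (23 reads) at 5 mM and 1.09 FPKM (83 reads) at 25 mM, a ratio of 2.27 (interval 1.60 to 4.27). PARP14 was at 3.89 and 6.21 FPKM (855 and 1918 reads), a ratio of 1.58 (interval 1.47 to 1.73). IFIH1, a cytoplasmic sensor of viral RNA, was lower at 25 mM with 0.790 and 0.437 FPKM (86 and 67 reads), a ratio of 0.604 (interval 0.396 to 0.771). In PLC cells IFIH1 had 105 and 82 reads, a ratio of 1.41 between the thresholds. All 3 intervals also left out 1 when computed from the divided counts. The median log2 ratio of the 20 ISGs was 0.11, beside 0.04 over all genes.

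The remaining 17 measured ISGs of Huh7 cells lay between these thresholds. USP18 was at 3.83 and 5.60 FPKM (ratio 1.45, interval 1.20 to 1.79) and PARP9 at 1.73 and 2.42 FPKM (ratio 1.38, interval 1.23 to 1.61). The most abundant ISG, MX2, had a ratio of 1.09, ISG15 of 1.06 and STAT2 of 1.08. In all, 16 of the 20 ratios were over 1 and 4 under 1.

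In PLC cells, 22 ISGs were over 0.5 FPKM and 17 were not. Among all genes over 0.5 FPKM here, 26.2% were past the upper and 17.0% past the lower threshold. Of the 22 ISGs, 8 were past the upper threshold and 0 past the lower. This split depends on how the libraries are scaled. The median log2 ratio of all genes was 0.11 with library totals and -0.06 with TMM factors (edgeR), and with TMM 5 ISGs were past the upper threshold (OAS3, IFI6, STAT2, USP18 and HERC6) and 3 past the lower (ISG15, IRF7 and DTX3L). The median log2 ratio of the 22 ISGs was 0.47 with library totals, 0.31 with TMM and 0.34 with DESeq2 size factors. In all, 15 of the 22 ratios were over 1 and 7 under 1 both with totals and with TMM.

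The 8 held antiviral effectors, ISG15 system genes and ISGF3 subunits. HERC6 was at 0.406 and 1.13 FPKM (71 and 105 reads), a ratio of 2.44 (interval 2.05 to 3.83). IFI6 was at 2.20 and 5.03 FPKM (56 and 68 reads), a ratio of 2.23 (interval 1.58 to 3.32), and OAS3 at 0.623 and 1.46 FPKM (154 and 191 reads), a ratio of 2.15 (interval 1.88 to 2.91). These 3 ISGs were also past a ratio of 2. USP18 was at 0.391 and 0.838 FPKM (22 and 25 reads), a ratio of 1.91 (interval 1.16 to 3.99), and the interval from the divided counts held 1.

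BST2 was at 49.2 and 80.0 FPKM (1640 and 1414 reads), a ratio of 1.63 (interval 1.51 to 1.75). HERC5 was at 0.860 and 1.39 FPKM (124 and 106 reads), a ratio of 1.55 (interval 1.23 to 2.11). Of the ISGF3 subunits, STAT2 was at 4.29 and 7.47 FPKM (805 and 743 reads), a ratio of 1.72 (interval 1.57 to 1.93), and IRF9 at 0.396 and 0.678 FPKM (43 and 39 reads), a ratio of 1.57 (interval 1.08 to 2.70). The IRF9 interval from the divided counts also held 1. With TMM, BST2, HERC5 and IRF9 were within the thresholds.

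Apart from BST2, the abundant membrane and secreted ISGs of PLC cells had ratios between 1 and the upper threshold. IFITM3 was at 206 and 304 FPKM (ratio 1.48, interval 1.43 to 1.53), IFITM2 at 31.0 and 43.3 FPKM (ratio 1.40) and LGALS3BP at 32.8 and 39.5 FPKM (ratio 1.20). ISG15 was lower at 25 mM with 34.1 and 23.8 FPKM (ratio 0.699, interval 0.613 to 0.792). DTX3L was at 4.80 and 3.56 FPKM (ratio 0.748) and ISG20 at 2.33 and 1.73 FPKM (ratio 0.754). ISG15, DTX3L and ISG20 lay between the lower threshold and 1 with library totals.

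**Figure D2:**
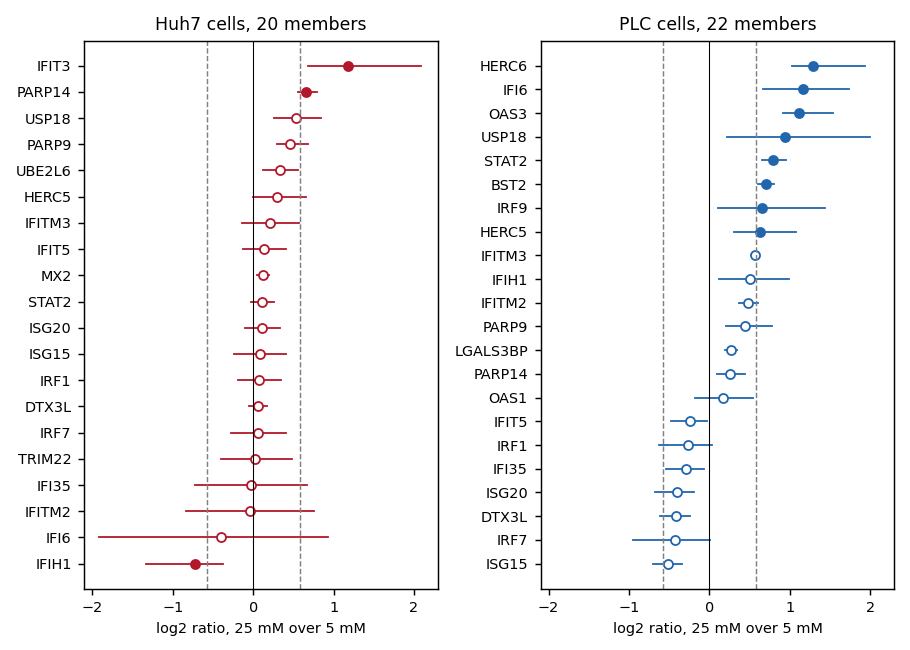
Ratio of 25 mM to 5 mM FPKM (log2, horizontal axis, 0.1 FPKM added to both values) of the ISGs over 0.5 FPKM in Huh7 (20 genes) and PLC cells (22 genes), with bars for the 95% interval for counting error and dashed lines at ratios of 0.67 and 1.5. Filled points are past the thresholds, namely 2 to the right and 1 to the left in Huh7 cells and 8 to the right in PLC cells.

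No ISG was past the glucose thresholds in both lines. The ratio alone was over 1.5 in both lines for HERC6 (1.68 in Huh7 and 2.44 in PLC cells) and IFIT1 (1.59 and 2.31). HERC6 in Huh7 cells and IFIT1 in both lines were under the limit of 0.5 FPKM. For IFIT1 in Huh7 cells, the interval from the divided counts held 1. Of the 16 ISGs over 0.5 FPKM in both lines, 0 were past the thresholds in both in the same direction, which 9.12% of all genes measured in both lines were. The ratio was over 1 in both lines for 6 (STAT2, USP18, HERC5, PARP9, PARP14 and IFITM3) and under 1 in both for IFI35. The other 9 had ratios on opposite sides of 1. For a glucose change common to the lines, edgeR was run with the line as a block. Across all genes 0.379% passed an adjusted p of 0.05, and 0 of the 31 ISGs tested did. At an unadjusted p under 0.05 were 1975 of 23217 genes and 1 of the 31 ISGs. This was HERC6 (log2 change 1.20 ± 0.44, SE; unadjusted p = 0.0167, edgeR adjusted p = 0.388), which was at 0.178 and 0.368 FPKM in Huh7 and at 0.406 and 1.13 FPKM in PLC cells. DESeq2 and limma also called 0 ISGs, with 0 and 2 at an unadjusted p under 0.05, the latter being HERC6 and IFIT1. Over all genes, 1116 in DESeq2 and 2261 of 23217 in limma were under that level. The IFIT1 gene had 24 and 62 reads in Huh7 and 19 and 33 in PLC cells (log2 change 1.19 ± 0.55, SE; edgeR adjusted p = 0.588), and was under 0.5 FPKM in all 4 libraries.

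The upstream genes of the pathway were taken from lists of ligands, receptors, kinases, inhibitors and sensors. None of the 22 interferon ligand genes was over 0.5 FPKM in any library. In PLC cells all 22 had 0 reads in both libraries, and in Huh7 cells 20 did, the others being IFNA5 with 4 and 0 reads and IFNK with 4 and 2. IFNB1 and IFNL1 were thus at 0 in every library, which allows up to 3 reads for each. The ISG levels above were measured beside ligand RNA at or near the limit of detection.

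All 6 receptor genes had lower fitted levels in Huh7 than in PLC cells. In the edgeR test between the lines 5 of the 6 passed, beside 42.9% of all genes. With DESeq2 3 of the 6 passed, beside 7158 of 24419 genes. Without either Huh7 library fewer passed among the receptor genes and over all genes, and Huh7 cells then have 1 library. IFNAR1, a chain of the type I receptor, was at 9.64 and 10.4 FPKM in Huh7 and 23.8 and 22.9 FPKM in PLC cells (edgeR adjusted p = 0.000619). IFNLR1, the specific chain of the type III receptor, was at 0.871 and 0.606 FPKM against 1.69 and 1.40 FPKM (edgeR adjusted p = 0.0255). IFNAR2, the other type I chain, was at 0.852 and 0.735 FPKM against 1.11 and 1.93 FPKM and did not pass (edgeR adjusted p = 0.0793). The glucose ratio was past the upper threshold for IFNAR2 (1.68), IFNGR2 (1.51) and IL10RB (1.96) in PLC cells, and past a threshold for 0 receptor genes in Huh7 cells. These 3 of 6 stand beside 26.2% of all genes past the upper threshold in PLC cells, and with TMM 2 receptor genes were past the upper and 1 past the lower threshold.

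Of the kinase genes JAK1, JAK2 and TYK2, the first and second passed as higher in PLC cells, beside 21.1% of all genes. JAK1 was at 16.1 and 15.2 FPKM in Huh7 and 43.5 and 28.8 FPKM in PLC cells (edgeR adjusted p = 0.000673). With glucose in PLC cells, TYK2 was past the upper threshold (ratio 1.53) and JAK1 past the lower (ratio 0.662), and with TMM TYK2 was within the thresholds. Over all genes in that line, 26.2% were past the upper and 17.0% past the lower threshold. Without the Huh7 library at 25 mM, fewer passed between the lines among these kinase genes and over all genes, and Huh7 cells then have 1 library. Of 8 inhibitors, SOCS3 and PTPN6 passed as higher in PLC cells. With DESeq2 0 of the 8 did, beside 7158 of 24419 genes. The numbers of inhibitors and of all genes that passed changed with each library left out, and 1 line then has 1 library. SOCS3, which blocks JAK kinases, was at 0.240 and 0.474 FPKM in Huh7 and 0.797 and 1.73 FPKM in PLC cells (edgeR adjusted p = 0.00870), and its glucose ratio in PLC cells was 2.04. It was the 1 of 6 measured inhibitors past the upper threshold in PLC cells, beside 26.2% of all genes. Between the lines, the 2 of 8 inhibitors that passed in edgeR with all libraries stand beside 42.9% of all genes.

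Of the 18 sensors and adaptors, 10 were tested between the lines, with MAVS higher in Huh7 cells and DDX58, TICAM1 and IRF3 higher in PLC cells. These 4 of 10 stand beside 42.9% of all genes. Without either Huh7 library, fewer of the 10 and fewer of all genes passed, and Huh7 cells then have 1 library. DDX58, which encodes the RNA sensor RIG-I, was at 2.72 and 2.99 FPKM in Huh7 and 4.31 and 7.44 FPKM in PLC cells (edgeR adjusted p = 0.0135). MAVS, the adaptor of RIG-I, was at 31.7 and 36.7 FPKM against 21.8 and 22.7 FPKM (edgeR adjusted p = 0.0249). TLR3, an endosomal RNA sensor, had 0, 2, 0 and 0 reads. With glucose, DDX58 (1.71) and IKBKE (2.69) were past the upper threshold in PLC cells and 0 sensors in Huh7 cells. These 2 of 7 and 0 of 7 measured sensors stand beside 26.2% and 14.1% of all genes. With TMM, 2 sensors were past the upper threshold in PLC cells. In the shared glucose test, 0 genes of these lists passed in edgeR, and DESeq2 and limma called 0 as well. In edgeR 1 gene was at an unadjusted p under 0.05 (IKBKE), beside 1975 of all 23217 genes.

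**Figure D3:**
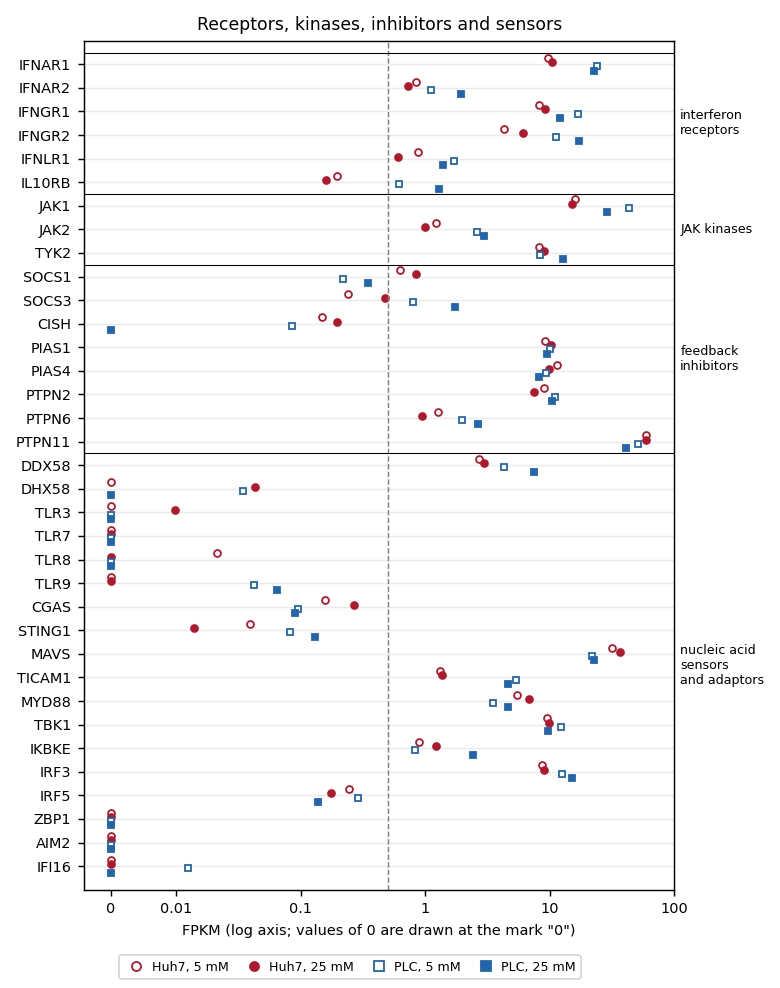
FPKM (horizontal log axis, values of 0 drawn at the mark "0") of the receptors, JAK kinases, feedback inhibitors and nucleic acid sensors in the 4 libraries, with the dashed line at 0.5 FPKM. The 6 receptors lie to the right in PLC cells, with IFNAR1 at 23.8 and 22.9 FPKM beside 9.64 and 10.4 FPKM in Huh7 cells.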

How the data were processed

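Per the labels and the study's methods, rRNA was removed and directional RNA-seq libraries were made from Huh7 and PLC cells, 1 per line and glucose concentration. The deposited values are raw counts of reads per gene, made by the authors without normalization. The submitters' processing notes name HISAT2, featureCounts and hg38. Versions, strand setting and annotation release are not given in the sources used here. Of 59657 lines, 59652 were used, and 5 lines of a broken ANK2 entry were left out. Of the symbols in the pathway lists, 3 were not in the table, where the same genes stood under DDX58, CGAS and STING1.

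FPKM was calculated from counts, gene lengths and library totals (21376239, 30085303, 30279716 and 16049686 reads for Huh7 at 5 mM and 25 mM and PLC at 5 mM and 25 mM). Ratios used a pseudocount of 0.1 and the study's thresholds. Counts were tested with edgeR 4.0.16 in R 4.3.3 (TMM, filterByExpr, quasi-likelihood test with line and glucose as terms, Benjamini-Hochberg adjustment over all genes tested). DESeq2 1.42.0, limma 3.58.1, other scalings, filters and pseudocounts, and each library left out were the alternatives. The fits were tested on simulated data. A pooled level is the reads of both libraries of a line over their summed totals, and a count of 0 was taken as up to 3 reads. Intervals and floors cover counting error only. Promoters came from RefSeq and were searched on both strands.

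All 39 members are accounted for, with every library's value given for those past a threshold or called. A gene of the pathway lists is not reported here. The members and lists were chosen with earlier results of these data known.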

Additional observations from a re-analysis of the deposited data

Results flagged for a closer look

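IFIH1 and IRF9 had glucose ratios on opposite sides of 1 in the lines, each with a counting interval that left out 1. IFIH1 was lower at 25 mM in Huh7 cells (ratio 0.604) and higher in PLC cells (ratio 1.41, interval 1.09 to 1.99). For IRF9 the ratio was 0.527 in Huh7 (19 and 9 reads, interval 0.134 to 0.781), where it was under 0.5 FPKM, and 1.57 in PLC cells (interval 1.08 to 2.70). From counts divided by 2, the intervals of both genes in PLC cells and that of IRF9 in Huh7 cells held 1. With 1 library per condition, this contrast of the lines was not tested for either gene.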

How the results depend on the processing

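With 1 library per group, within-line ratios have no test, and leaving out a library leaves the shared glucose test no residual degree of freedom. In Huh7 cells 3 ISGs were past the thresholds. The count was 0 with a pseudocount of 1, 1 with FPKM over 0.5 in both libraries, 9 with no filter on FPKM and 1 with ratios of 2 and 0.5. In PLC cells it was 8, and 5 with a pseudocount of 1, 5 with FPKM over 0.5 in both libraries and 3 with ratios of 2 and 0.5, and it was 12 with no filter on FPKM, 8 with TMM and 6 with DESeq2 size factors. Intervals from counts divided by 2, an alternative chosen after seeing the data, left out 1 for 3 and 6 of these genes. The 20 ISGs called between the lines were 13 with at least 10 counts in every library, which tests 20 ISGs, 15 with DESeq2, 22 with limma and 13 to 20 with each library left out together with the glucose block, where the line with 1 library is assumed to vary like the other. Without the glucose block 19 were called. Over all genes, 9969 of 23217 passed in the edgeR fit with both terms and 7158 of 24419 with DESeq2. Of the 20, 12 passed in every alternative that gave a value, and all 20 kept their direction in those alternatives. For the shared glucose change, 0 ISGs passed in each of the 6 alternative fits, including that without the line block, and the lowest adjusted p of an ISG in any of these fits was 0.274. The line is the only pairing of the glucose libraries, and the labels give no replicate numbers.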

Other observations

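A further list of 50 interferon-stimulated genes outside the 39 was also divided between the lines. Of 35 tested, 14 were higher in Huh7 and 9 higher in PLC cells in edgeR at an adjusted p under 0.05, beside 21.8% and 21.1% of all genes. Without the Huh7 library at 5 mM or at 25 mM, 14 passed in all. NMI, the partner of IFI35, had 202 and 335 reads in Huh7 and 0 and 2 in PLC cells (pooled ratio 242, 95% interval for counting error 66.6 to 2001), so the 2 partner genes were high in different lines. The helicase gene DDX60L had 241 and 395 reads against 4 and 0. The membrane protein gene PLSCR1 had 339 and 530 reads against 53 and 53. In the other direction, the guanylate-binding protein gene GBP2 had 255 and 359 reads in Huh7 and 874 and 773 in PLC cells.

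With glucose, 3 of the 27 measured genes of this list were past the lower threshold in Huh7 cells and 0 past the upper, beside 13.7% and 14.1% of all genes. These were SP100 (2.69 and 1.71 FPKM, ratio 0.648), APOL6 (2.12 and 1.09 FPKM, ratio 0.536) and RBCK1 (20.3 and 12.6 FPKM, ratio 0.622). In PLC cells 8 of 26 were past the upper and 3 past the lower threshold, beside 26.2% and 17.0% of all genes (7 and 3 with TMM). RBCK1, a subunit of the linear ubiquitin ligase, was past the lower threshold in both lines (11.7 and 7.54 FPKM in PLC cells, ratio 0.646). In the shared glucose test 0 of 35 passed in edgeR. There 4 were at an unadjusted p under 0.05 (SP100, APOL6, RBCK1 and APOBEC3B), beside 1975 of all 23217 genes. DESeq2 and limma also called 0. Without the filter on low counts 1 of 45 passed in edgeR, APOL6 (log2 change -1.65 ± 0.38, SE; edgeR adjusted p = 0.00282, and 0.137 with the filter).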
